A study of Mus musculus with 12 samples.

Results

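Immediate early genes and the injury-induced factor Atf3 were followed in hematoma-adjacent mouse brain after intracerebral hemorrhage (ICH), with and without Fabp4 in microglia. The members are genes given as a list of symbols, Fos, Fosb, Fosl1, Junb, Egr1, Egr2, Arc, Nr4a1, Npas4 and Atf3, and were read by symbol from a table of 21956 genes, and all 10 members were present. RNA-seq was performed on 12 mice, 3 in each of 4 groups. Sham-Fabp4fl/fl and ICH-Fabp4fl/fl mice carried the floxed Fabp4 allele and served as genotype controls. Sham-Fabp4CKO and ICH-Fabp4CKO mice carried the same floxed allele with Tmem119creERT2, an inducible Cre driven from a microglial gene, and received tamoxifen before surgery. ICH was induced with collagenase injected into the right striatum, and sham mice went through the same surgery without collagenase and the same tissue collection. Tissue within 1 to 2 mm of the hematoma was taken 48 h after ICH and cut into slices of 1 mm, so striatum and its neighbors, and neurons, glia, vessels and blood-borne cells, were sequenced together. Age, and whether fl/fl mice also received tamoxifen, were not stated for these libraries. No separate collection time was given for the sham mice.

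Immediate early genes are transcribed within minutes of a stimulus from factors that are already present, and their mRNAs are short-lived, so a level in tissue mostly reflects recent stimulation. Fos, Fosb, Fosl1 and Junb encode subunits of the AP-1 dimer, Egr1 and Egr2 encode zinc finger factors, Nr4a1 encodes an orphan nuclear receptor, and Npas4 encodes a factor that neurons make on calcium influx. Arc, by contrast, encodes a synaptic protein that controls AMPA receptor endocytosis. Atf3 encodes a stress-induced bZIP factor with low levels in healthy tissue, and it is widely used as a marker of injured neurons, although activated myeloid cells and other stressed cells make it as well.

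Promoters of this class are known for cAMP response elements, bound by CREB, and for serum response elements, bound by SRF. RefSeq promoter windows (GRCm38.p6) were used for 7 of the 10 members, with symbols matching windows to members. Egr1, Arc and Fosl1 did not enter the search. The motif counts therefore do not bear on the promoters of these genes, and with them included the shares could differ. The core of the cAMP response element was searched as TGACG on both strands in the 250 bases before the start. It was found in 7 of 7 members, with Egr2 represented by 5 windows and the others by 1 each, against 17.8% of all 32851 windows. Shown here are the 60-base stretches that hold the match nearest to the start, as they bear on what the members share beyond their listing. They lie at chr12:85473789-85473848 for Fos and chr7:19310081-19310140 for Fosb, at chr8:84978830-84978889 for Junb and chr10:67537779-67537838 for Egr2, at chr15:101266771-101266830 for Nr4a1 and chr19:4990116-4990175 for Npas4, and at chr1:191183334-191183393 for Atf3. Fos, Egr2 and Nr4a1 lie on the plus strand and the others on the minus strand, and each sequence is written 5′ to 3′ on the strand of its gene. Capitals mark TGACG or its reverse complement CGTCA and, in Egr2, a CArG box.
Fos: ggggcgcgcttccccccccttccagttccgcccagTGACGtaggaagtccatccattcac
Fosb: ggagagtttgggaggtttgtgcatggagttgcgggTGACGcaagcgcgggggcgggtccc
Junb: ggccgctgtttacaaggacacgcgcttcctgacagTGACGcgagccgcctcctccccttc
Egr2: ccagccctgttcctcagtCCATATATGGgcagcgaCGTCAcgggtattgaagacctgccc
Nr4a1: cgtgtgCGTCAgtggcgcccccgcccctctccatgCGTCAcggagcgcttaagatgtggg
Npas4: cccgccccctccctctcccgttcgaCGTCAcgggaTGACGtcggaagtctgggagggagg
Atf3: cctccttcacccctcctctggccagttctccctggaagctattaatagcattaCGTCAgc

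The full palindrome TGACGTCA, which contains the core, was found in 0 of 7 members and 1.55% of all windows. An AP-1 element (TGAGTCA or TGACTCA) was found in 0 of 7 members and 4.46% of windows, and the EGR element GCGTGGGCG in 0 of 7 and 0.536%. A CArG box was found in 1 of 7 members, Egr2, and in 1.47% of windows. TATAAA was found in 1 member, Fos, and CCAAT in 2, against 12.4% and 33.8% of windows. These matches describe letters in the reference and not occupied sites. Egr1, Arc and Fosl1 were not searched, so the counts out of 7 do not describe the whole list. Sequence is not shown for these genes.

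Depth ranged from 15650830 to 22406222 counts per library. Fabp4 had 5 reads in all in Sham-Fabp4fl/fl, 0 in Sham-Fabp4CKO, 133 in ICH-Fabp4fl/fl and 18 in ICH-Fabp4CKO, in the direction of the labels. Mouse 1 of ICH-Fabp4CKO had 1 read over 4 Y-linked genes, against 1302 to 2251 in each of the other 11 libraries, and mouse 1 of ICH-Fabp4fl/fl had 16.3% of its counts on mitochondrial genes, against 7.9% to 11.9% elsewhere. Summed over 10 neuron markers, the level was 5546 to 7358 CPM (counts relative to the normalized library size) in the 6 sham mice and 1594 to 5155 CPM in the 6 ICH mice, and no neuron marker was at 0 in any group. Summed over 10 markers of infiltrating myeloid cells, it was 8.87 to 49.7 CPM in sham and 687 to 8136 CPM after ICH, with Ly6g at 0 in all 3 ICH-Fabp4fl/fl mice. Markers of striatal projection neurons, the main neurons of the injected region, ranged from 1828 to 5831 CPM within Sham-Fabp4fl/fl alone, with mouse 3 highest. The part of these differences in the results that follow was not tested, and in bulk tissue fewer cells of a type and less RNA per cell cannot be told apart.

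In Sham-Fabp4fl/fl brain the members spanned a wide range of abundance. As CPM per kb of exon (n = 3), Egr1 had the highest level at 41.9 ± 16.9 (SD), followed by Arc at 24.3 ± 7.24, Junb at 13.8 ± 3.04 and Nr4a1 at 13.7 ± 1.95. Lower levels were seen for Fos (7.21 ± 3.99), Egr2 (2.13 ± 0.839), Fosb (1.48 ± 0.585), Npas4 (1.35 ± 0.324) and Atf3 (0.627 ± 0.278), with Fosl1 last at 0.0322 ± 0.036. In this order, the ranges of mean ± SD of neighbors overlapped for Egr1 and Arc, Junb and Nr4a1, Egr2 and Fosb, and Fosb and Npas4. After ICH in the same genotype the order was led by Junb at 32.1 ± 11.4, Atf3 at 19.4 ± 8.58, Egr1 at 15 ± 5.6, Arc at 12.9 ± 6.12 and Fos at 11.2 ± 3.33, with overlapping ranges from each to the next. Nr4a1 followed at 4.69 ± 0.679 CPM per kb, then Fosl1 at 1.08 ± 0.385, and Npas4, Fosb and Egr2 lay between 0.605 and 0.706. Atf3, the ninth of 10 in sham, was thus the second of 10 after ICH.

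**Figure D1:**
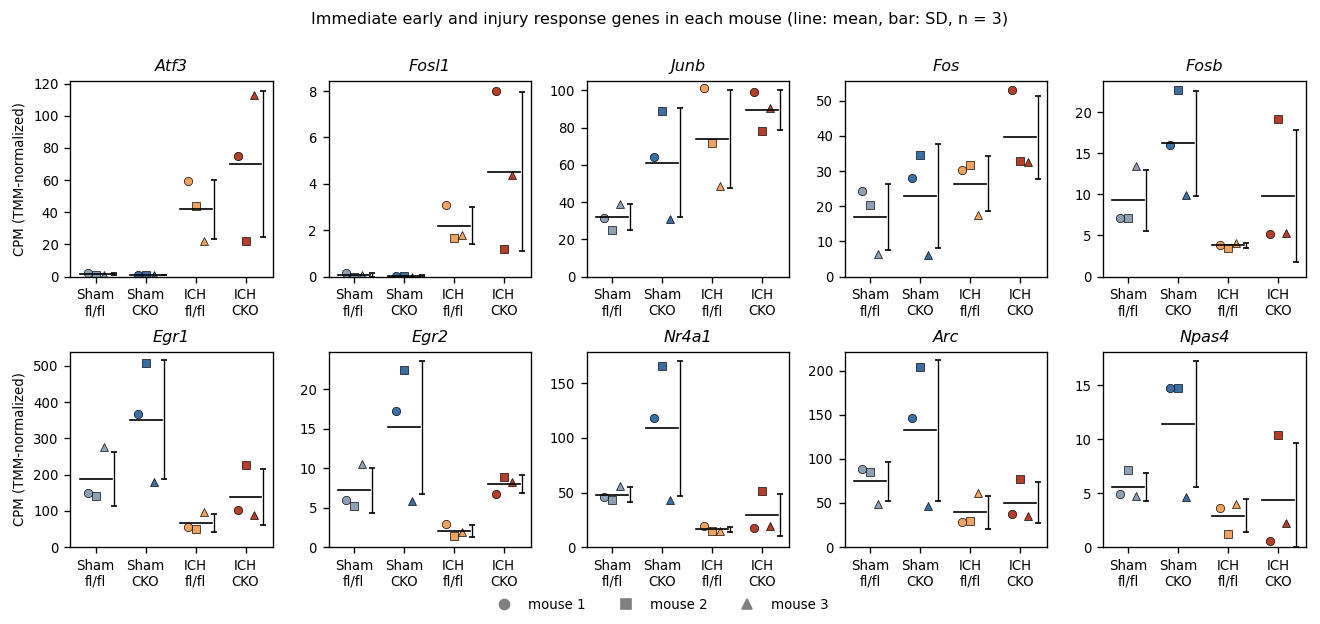
Each panel plots 1 gene, with TMM-normalized CPM on a linear axis from 0 and the 4 groups on the x axis; symbols are mice, lines are means and bars are SD (n = 3, bars stop at 0). Atf3 lies between 0.74 and 2.02 CPM in the sham mice and between 22.3 and 113 CPM in the ICH mice, while mouse 2 of ICH-Fabp4CKO stands above the rest of its group for Fosb, Egr1, Arc, Nr4a1 and Npas4.

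The effect of hemorrhage was first examined in mice with intact Fabp4. The list split into genes that rose and genes that fell: Atf3, Fosl1 and Junb were higher, Nr4a1, Egr2, Egr1 and Fosb were lower, and Fos, Arc and Npas4 did not pass the adjusted threshold. That is 3 of 10 higher, against 26.2% of the 14719 genes tested, and 4 of 10 lower, against 19.3%. Fosl1 could be tested only through its ICH libraries and is not counted as support, which leaves Atf3 and Junb, 2 of the other 9, as higher. With single libraries left out, the share of all genes called in either direction ranged from 28% to 54.7%, against 45.6% with every library. The median log2 fold change of the 10 was -0.95, against 0.02 over all genes tested. In 3 members every ICH mouse lay above every sham mouse (34.4% of all genes) and in 5 every ICH mouse lay below (27.4%). Calls rest throughout on Benjamini-Hochberg adjusted p-values from edgeR's quasi-likelihood test.

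Atf3 had the smallest adjusted p of the members. Its level was 2.02, 1.15 and 0.878 CPM in the 3 Sham-Fabp4fl/fl mice and 59.2, 43.9 and 22.4 CPM in the 3 ICH-Fabp4fl/fl mice. All ICH mice lay far above all sham mice, and mouse 3 was the lowest in both groups. Its log2 fold change was 4.89 ± 0.45 (SE, adjusted p = 0.000425). A small RNA gene, Gm24748, overlaps Atf3 on the other strand.

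Fosl1 encodes FRA-1, an AP-1 subunit linked to migration and invasion in other tissues. It had 3, 0 and 1 reads in the Sham-Fabp4fl/fl mice and 44, 27 and 34 reads in the ICH-Fabp4fl/fl mice. It was therefore near the limit of detection in sham and low but present in every ICH mouse, and it passed the low-count filter only through the ICH libraries. Adjusted for depth, the ratio of reads was 31.2 (95% exact counting interval 11.8 to 117, which covers counting error only). Fosl1 overlaps Ccdc85b on the other strand and its estimated count was not a whole number in 10 of 12 libraries, so reads may have been divided with another gene and its level is uncertain.

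Junb, whose protein pairs with Fos family members, rose more modestly. Levels were 31.4, 25 and 39 CPM in sham and 101, 71.5 and 48.8 CPM after ICH. The groups were apart, with mouse 3 after ICH closest to sham. This gave a log2 fold change of 1.16 ± 0.27 (adjusted p = 0.0129), and without Sham-Fabp4fl/fl mouse 2 it was 0.97 (adjusted p = 0.0558). Junb overlaps Prdx2 on the other strand, and whether reads were counted by strand was not given in the sources used here.

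Fos, the prototype of the class, had 24.2, 20.3 and 6.35 CPM in sham and 30.3, 31.6 and 17.4 CPM after ICH. The groups overlapped, and mouse 3 was the lowest in each. Its log2 fold change was 0.59 ± 0.46 (adjusted p = 0.316).

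Nr4a1, which is induced in neurons by activity and in myeloid cells by inflammatory signals, was lower with little spread within either group. It had 45.5, 42.9 and 55.8 CPM in sham and 19.2, 15 and 15.1 CPM after ICH. Every ICH mouse lay below every sham mouse. Fold change on the log2 scale was -1.59 ± 0.17 (adjusted p = 0.000615), and its adjusted p stayed between 3.87e-14 and 0.0242 over all alternatives run.

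Of the zinc finger factors, Egr1 is made at high basal levels by active forebrain neurons. It had 149, 140 and 275 CPM in sham and 55.6, 49.9 and 96 CPM after ICH. The groups did not overlap, and mouse 3 was the highest in each. Its log2 fold change was -1.51 ± 0.37 (adjusted p = 0.0141), and without ICH-Fabp4fl/fl mouse 2 it was -1.37 (adjusted p = 0.0558).

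Egr2, which is also a regulator of Schwann cell myelination in nerve, had 5.98, 5.2 and 10.5 CPM in sham and 2.89, 1.37 and 1.91 CPM after ICH. It thus lay at low levels that did not overlap. For Egr2 the log2 fold change was -1.86 ± 0.39 (adjusted p = 0.00862).

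Fosb, whose truncated product ΔFosB is known to accumulate in striatum with repeated stimulation, had 7.18, 7.12 and 13.5 CPM in sham and 3.87, 3.43 and 4.09 CPM after ICH. The ICH mice were tightly grouped below the sham mice, of which mouse 3 was the highest. Its log2 fold change was -1.32 ± 0.31 (adjusted p = 0.0128). Gene-level counts do not separate ΔFosB from the full transcript, and with all 12 libraries in a single fit the adjusted p was 0.0611.

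The most neuron-restricted members, Arc and Npas4, had values of the same sign without passing the threshold. Arc had 89, 85.2 and 48.9 CPM in sham and 28.3, 29.2 and 61.1 CPM after ICH. Mouse 3 was the lowest sham mouse and the highest ICH mouse, and only this pair overlapped. The log2 fold change was -0.94 ± 0.37 (adjusted p = 0.0739), and Arc did pass without ICH-Fabp4fl/fl mouse 3 (-1.43, adjusted p = 0.00495) or without Sham-Fabp4fl/fl mouse 3 (-1.21, adjusted p = 0.0487). In those fits 54.7% and 35.5% of all genes passed.

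Npas4 had 4.92, 7.12 and 4.7 CPM in sham and 3.59, 1.18 and 3.99 CPM after ICH. The groups were apart but close. The log2 fold change was -0.96 ± 0.45 (adjusted p = 0.115). Beside these decreases, 8 of the 10 neuron markers were also lower after ICH in this genotype, with a median log2 fold change of -1.19, whereas 0 of 10 striatal projection neuron markers passed (median -0.47). In CKO, 1 of 10 neuron markers (median -1.16) and 3 of 10 striatal projection neuron markers (median -1.10) were lower. All 8 tested markers of infiltrating myeloid cells were higher, beside the increases of Atf3 and Fosl1, and 7 of those 8 had fewer than 10 reads in at least 1 sham library.

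**Figure D2:**
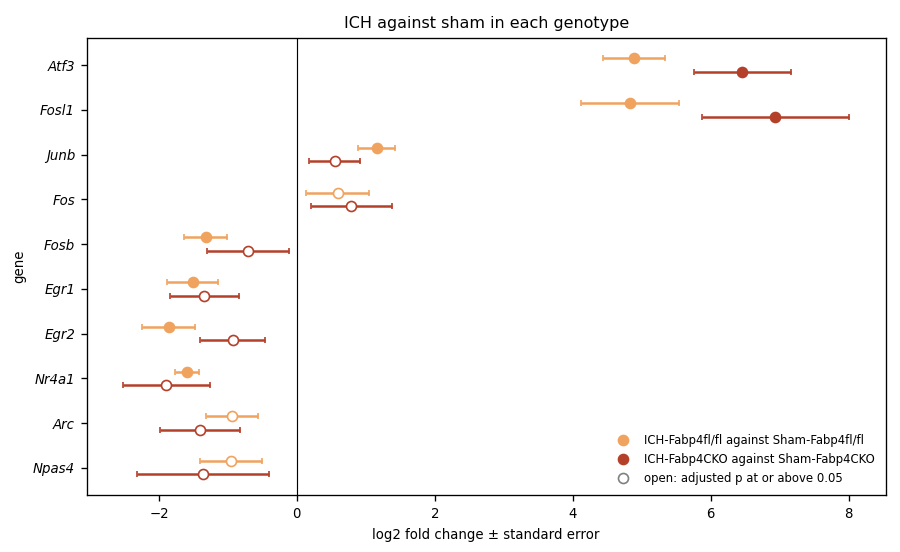
Points are log2 fold changes of ICH against sham with their SE on the x axis for each of the 10 genes, orange for fl/fl and red for CKO, filled where the adjusted p was under 0.05. Atf3 and Fosl1 are filled in both genotypes (the fitted value of Fosl1 rests on 4 and 2 sham reads), and the 6 genes from Fosb down lie left of 0 in both.

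The same comparison was made in mice without microglial Fabp4. Here Atf3 and Fosl1 rose and no member passed in the downward direction, although 6 of the 10 had negative log2 fold changes. That is 2 of 10 higher, against 24.5% of the 14737 genes tested, and 0 of 10 lower, against 11.1%. Of these, Fosl1 was again tested only through its ICH libraries, which leaves Atf3, 1 of the other 9. The median over the members was -0.82, against 0.01 over all genes tested. At an unadjusted p under 0.05 there were 5 members (52.4% of all genes), and DESeq2 called 5 (against 43.3% of the 17889 genes it tested), which were Atf3 and Fosl1 upward and Arc, Egr1 and Nr4a1 downward. Groups did not overlap for 2 members upward (33.2% of all genes) and for 0 downward (28.9%).

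Atf3 had 0.74, 0.851 and 0.782 CPM in the Sham-Fabp4CKO mice and 75, 22.3 and 113 CPM in the ICH-Fabp4CKO mice. The sham mice were nearly identical and every ICH mouse lay far above them. In log2 terms the change was 6.46 ± 0.70 (adjusted p = 0.00549).

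Fosl1 had 1, 1 and 0 reads in sham and 124, 22 and 80 reads after ICH. Again it was close to undetected in sham, with mouse 2 the lowest ICH mouse. The depth-adjusted ratio of reads was 141 (95% exact counting interval 38.7 to 1175). It was not called with any single Sham-Fabp4CKO mouse left out, although its fitted log2 fold change was then 6.44 to 7.27, against 6.94 with all mice. Calls over all genes went in those fits from 35.6% to between 4.21% and 5.66%.

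Among the members with negative values, Nr4a1 came closest to the threshold. It had 118, 166 and 43.2 CPM in sham and 17.2, 51.7 and 19.3 CPM after ICH. Only the highest ICH mouse, mouse 2, and the lowest sham mouse, mouse 3, overlapped. Its log2 fold change was -1.89 ± 0.63 (adjusted p = 0.0568).

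Egr1 showed the same arrangement, with 366, 507 and 180 CPM in sham and 101, 226 and 87.9 CPM after ICH (log2 fold change -1.34 ± 0.50, adjusted p = 0.076). Arc had 146, 204 and 46.6 CPM in sham and 37.6, 77.3 and 35.7 CPM after ICH (-1.40 ± 0.58, adjusted p = 0.0951). In both genes ICH mouse 2 lay above sham mouse 3 and all other ICH mice lay below all sham mice. Npas4 had 14.8, 14.8 and 4.69 CPM in sham against 0.582, 10.4 and 2.24 CPM after ICH, a log2 fold change of -1.36 ± 0.96 (adjusted p = 0.273). Fosb had 16, 22.7 and 9.93 CPM against 5.17, 19.1 and 5.25 CPM, a log2 fold change of -0.71 ± 0.59 (adjusted p = 0.348). The overlap was again between ICH mouse 2 and the sham mice.

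Egr2 behaved differently within the group, because its 3 ICH mice were alike. It had 17.3, 22.4 and 5.89 CPM in sham and 6.72, 8.9 and 8.26 CPM after ICH (log2 fold change -0.93 ± 0.47, adjusted p = 0.148). All ICH mice lay between the lowest and the other sham mice. Junb had 64.1, 88.7 and 30.8 CPM in sham and 99.3, 78.2 and 90.5 CPM after ICH, a log2 fold change of 0.55 ± 0.37 (adjusted p = 0.253). Fos had 27.9, 34.7 and 6.16 CPM in sham and 53.2, 32.9 and 32.6 CPM after ICH, a log2 fold change of 0.79 ± 0.59 (adjusted p = 0.303). For both AP-1 genes sham mouse 2 lay among the ICH mice.

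The spread of the CKO groups followed individual mice across genes. Of the 6 members with negative values, mouse 2 of ICH-Fabp4CKO was the highest of its group for 6, and mouse 3 of Sham-Fabp4CKO the lowest of its group for 6. Over the whole list, Sham-Fabp4CKO mouse 3 was the lowest of its group for 9 of 10 genes, Atf3 being the exception. ICH-Fabp4CKO mouse 2 was at the same time the lowest of its group for Atf3, Fosl1 and Junb. Npas4 spanned 17.9-fold between the ICH-Fabp4CKO mice, Fosl1 6.84-fold and Atf3 5.08-fold, whereas Egr2 spanned 1.32-fold and Junb 1.27-fold.

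Marker sums separated the same mouse. Neuron markers summed to 2415, 5155 and 1594 CPM in ICH-Fabp4CKO mice 1, 2 and 3, and infiltrating myeloid markers to 4631, 960 and 8136 CPM. Mouse 2 thus had the most neuron marker RNA and the least myeloid marker RNA of its group. In the ICH-Fabp4fl/fl mice, neuron markers summed to 1917, 2958 and 3925 CPM and myeloid markers to 1395, 1386 and 687 CPM. There, mouse 3 had the most neuron and the least myeloid marker RNA, and it was also the highest of its group for Fosb, Egr1, Arc and Npas4 and the lowest for Atf3, Junb and Fos. In Sham-Fabp4CKO the neuron markers were nearly equal at 6268, 5948 and 6197 CPM, while striatal projection neuron markers summed to 4845, 6806 and 3877 CPM, lowest in mouse 3. The part of tissue composition in these orders was not tested.

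With ICH-Fabp4CKO mouse 2 left out, 7 of 10 members passed in the comparison with Sham-Fabp4CKO rather than 2, while 67.4% of all genes passed rather than 35.6%. The members' share in that fit was near that of all genes. Nr4a1 (-2.58, adjusted p = 0.00372), Egr1 (-1.89, adjusted p = 0.00415), Fosb (-1.63, adjusted p = 0.00434), Npas4 (-2.97, adjusted p = 0.00611) and Arc (-1.85, adjusted p = 0.0191) were then lower, beside the increases of Atf3 and Fosl1. Without Sham-Fabp4CKO mouse 1, or without mouse 2, only 1 member passed, and 5.66% and 5.62% of all genes. Without Sham-Fabp4CKO mouse 3, Egr2 was lower (-1.32, adjusted p = 0.0474), where 4.21% of all genes passed.

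**Figure D3:**
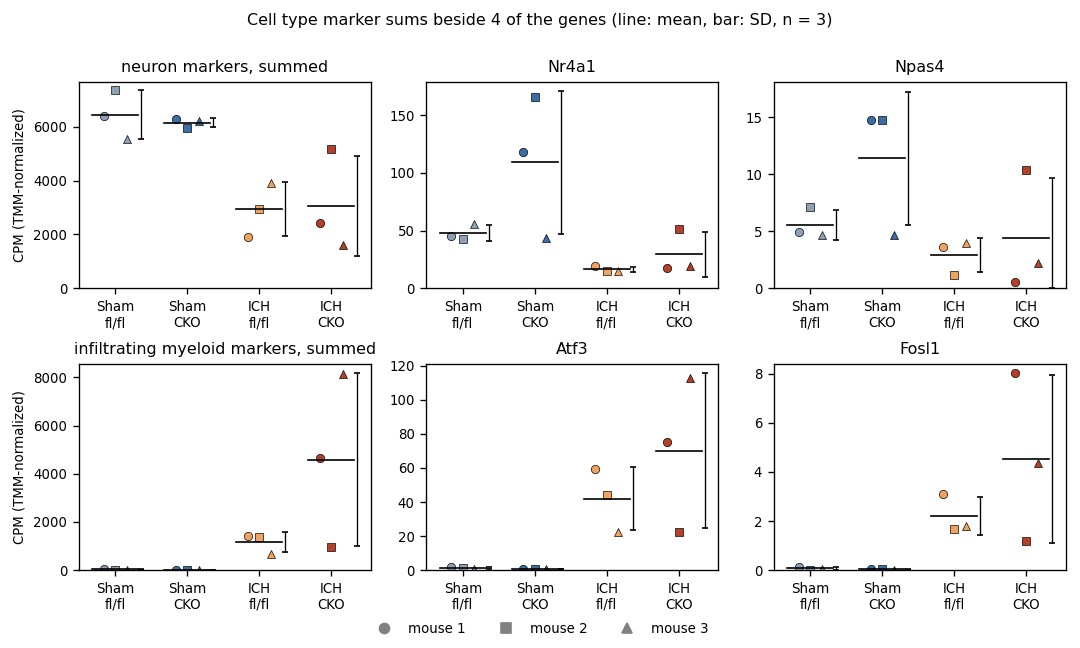
Panels give TMM-normalized CPM on linear axes from 0 for summed neuron markers, Nr4a1 and Npas4 (top) and summed infiltrating myeloid markers, Atf3 and Fosl1 (bottom), by group, with mice as symbols, means as lines and SD as bars (n = 3, bars stop at 0). The square in ICH CKO, mouse 2, is the highest of its group in the top row (5155, 51.7 and 10.4 CPM) and the lowest in the bottom row (960, 22.3 and 1.17 CPM).

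The genotypes were then compared after ICH, which asks whether loss of microglial Fabp4 changed the members in injured tissue. No member passed, with adjusted p from 0.252 to 0.818, as was the case for 0 of the 14600 genes tested (0% called), of which 1777 (12.2%) had an unadjusted p under 0.05. All 10 members had a log2 fold change above 0, as did 56.2% of all genes. Their median was 0.85, against 0.06 over all genes tested. In 3 members, Egr2, Fosb and Fos, every ICH-Fabp4CKO mouse lay above every ICH-Fabp4fl/fl mouse (8.3% of all genes), and 2 members, Egr2 and Fosb, had an unadjusted p under 0.05 (6.36% of all genes in this direction).

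Egr2 differed most between the genotypes. Its ICH-Fabp4CKO mice, at 6.72, 8.9 and 8.26 CPM, lay around the level of the Sham-Fabp4fl/fl mice (5.2 to 10.5 CPM), and the ICH-Fabp4fl/fl mice, at 2.89, 1.37 and 1.91 CPM, lay below both. The Sham-Fabp4CKO mice, however, had 17.3, 22.4 and 5.89 CPM, and ICH against sham in CKO gave -0.93 ± 0.47. In sham the genotype difference was already 1.08 ± 0.48, and the interaction was 0.88 ± 0.65. None of these 3 values passed. Between the ICH groups the log2 fold change was 2.01 ± 0.33 (adjusted p = 0.252), and it stayed between 1.79 and 2.29 under all alternatives run. DESeq2 gave an adjusted p of 1.08e-05, where it called 2.92% of all genes, and the fit of all 12 libraries 0.0559, so the call of Egr2 depends on the test.

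Fosb had a log2 fold change of 1.43 ± 0.56 (adjusted p = 0.392), which was 0.51 without ICH-Fabp4CKO mouse 2. Fos followed at 0.65 ± 0.30 (adjusted p = 0.443), with 32.6 to 53.2 CPM in ICH-Fabp4CKO and 17.4 to 31.6 CPM in ICH-Fabp4fl/fl. Only a narrow gap separated the Fos groups. Egr1 (1.08 ± 0.45), Nr4a1 (0.89 ± 0.44), Arc (0.38 ± 0.45), Npas4 (0.64 ± 0.98), Junb (0.34 ± 0.26), Atf3 (0.82 ± 0.60) and Fosl1 (1.10 ± 0.67) had overlapping groups. Without ICH-Fabp4CKO mouse 2, Arc (-0.07) and Npas4 (-0.98) turned to lower values in CKO, so the common sign of the 10 rests on that mouse for these genes. Egr1 was 0.54 and Nr4a1 0.21 without it, Atf3 was 0.29 without ICH-Fabp4CKO mouse 3 and Fosl1 0.40 without mouse 1. Summed infiltrating myeloid markers ranged from 960 to 8136 CPM in ICH-Fabp4CKO and from 687 to 1395 CPM in ICH-Fabp4fl/fl.

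In sham brain the genotypes also did not differ by the adjusted threshold for any member. Of the members, 9 were tested and Fosl1 fell below the filter. The adjusted p ranged from 0.479 to 0.777, and 16 of 14395 genes passed (0.111%). DESeq2 called 0 members, and 3 members, Junb, Nr4a1 and Npas4, had an unadjusted p under 0.05 with a positive value (4.15% of all genes). The log2 fold change was above 0 for 8 of the 9 tested (50.4% of all genes), with a median of 0.91, against 0.00 over all genes tested. In the same comparison 10 of 10 striatal projection neuron markers were above 0 (median 0.69), and 3 of 10 neuron markers were (median -0.07). None of these markers passed. The part of tissue sampling in the members' values was not tested.

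These higher means came from mice 1 and 2 of Sham-Fabp4CKO. Nr4a1 had the largest value, 1.19 ± 0.42 (adjusted p = 0.479), from 118 and 166 CPM in mice 1 and 2, with mouse 3 at 43.2 CPM inside the Sham-Fabp4fl/fl range. Egr2 (1.08 ± 0.48), Npas4 (1.05 ± 0.42), Junb (0.95 ± 0.35), Egr1 (0.91 ± 0.40), Arc (0.84 ± 0.48), Fosb (0.82 ± 0.35) and Fos (0.45 ± 0.64) had overlapping groups too. Atf3 was the only tested member with a negative value (-0.76 ± 0.38, adjusted p = 0.51) and the only 1 whose groups did not overlap, with 0.74 to 0.851 CPM in CKO and 0.878 to 2.02 CPM in fl/fl (8.86% of all genes). Without Sham-Fabp4fl/fl mouse 3, the mouse with the most striatal marker RNA in its group, 2 members passed, Egr1 (adjusted p = 0.0291) and Fosb (adjusted p = 0.0249), both higher in CKO. That is 2 of 9, against 19.6% of all genes in that fit and 0.111% with every library.

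**Figure D4:**
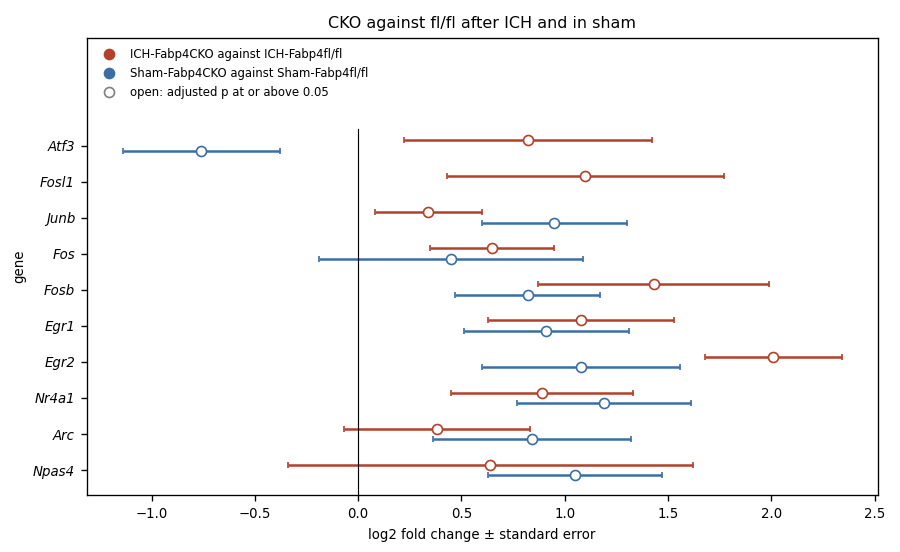
Points are log2 fold changes of CKO against fl/fl with their SE on the x axis for the 10 genes, red after ICH and blue in sham; all are open, since none had an adjusted p under 0.05, and Fosl1 was not tested in sham. Values after ICH lie right of 0 for all 10 genes, with Egr2 at 2.01, and in sham only Atf3 lies left of 0, at -0.76.

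Whether the response to ICH differed between the genotypes was tested as an interaction over all 12 libraries, and the 2 responses described above share no samples. No member passed (0 of 10), with adjusted p from 0.578 for Atf3 to 0.971 for Fos, while 3 of 15089 genes passed (0.0199%). None of the 10 had an unadjusted p under 0.05 (9.94% of all genes), and DESeq2 called 0. The interaction was 1.53 ± 0.84 (SE, log2) for Atf3, 0.88 ± 0.65 for Egr2 and -0.67 ± 0.50 for Junb. Calls of Junb, Nr4a1, Egr2, Egr1 and Fosb in fl/fl and not in CKO therefore do not show that these genes responded differently.

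Genes that act with the members were described from related lists. Over all genes tested, the median log2 fold change was 0.02 in fl/fl and 0.01 in CKO. Each list's counts stand beside 26.2% of all genes higher and 19.3% lower in fl/fl, and 24.5% higher and 11.1% lower in CKO. The other AP-1 family genes had 7 of 13 tested genes higher and 1 lower in fl/fl, and 8 higher and 2 lower in CKO, with medians of 0.91 and 0.96. In each genotype, 2 of the 13 had fewer than 10 reads in at least 1 sham library. Batf, an AP-1 factor of lymphoid and myeloid cells that was tested only through its ICH libraries, had 0.119 ± 0.0784 CPM in sham and 4.21 ± 1.38 CPM after ICH (SD, n = 3) in fl/fl, and 0.152 ± 0.0714 and 4.02 ± 2.59 CPM in CKO. The small MAF gene Maff rose by 3.31 ± 0.47 (log2, SE, adjusted p = 0.00185) in fl/fl and 3.33 ± 0.40 (adjusted p = 0.00589) in CKO. Atf2, a constitutive bZIP partner of JUN, fell in both (-0.96 ± 0.23 and -0.64 ± 0.17).

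The list of other EGR and NR4A members and EGR co-repressors held 6 genes. In fl/fl, Nr4a3 (-3.21 ± 0.29, adjusted p = 0.000408), Nr4a2 (-2.10 ± 0.41, adjusted p = 0.0063) and Egr4 (-1.91 ± 0.50, adjusted p = 0.0192) were lower, like Nr4a1, Egr1 and Egr2. In CKO 0 of 6 were lower, and the medians were -1.72 and -0.52. Nr4a3 had 3.41 ± 0.561 CPM (SD, n = 3) in ICH-Fabp4fl/fl and 14.2 ± 13.5 CPM in ICH-Fabp4CKO, a spread as wide as its mean. The co-repressor Nab1 rose in both genotypes, by 0.90 ± 0.27 and 1.02 ± 0.21 (log2, SE).

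The other rapid primary response genes were more often higher than lower. Of 28 genes tested, 15 were higher and 1 was lower in fl/fl, and 16 were higher and 0 lower in CKO (medians 1.09 and 1.28). Examples are the matricellular gene Ccn1 (3.93 ± 0.34 and 3.09 ± 0.36), the mRNA decay factor Zfp36 (2.97 ± 0.34 and 3.22 ± 0.44) and Ptgs2, the inducible cyclooxygenase, in CKO (3.11 ± 0.52, adjusted p = 0.0101). Per1, a clock gene that also responds to CREB, was the gene lower in fl/fl (-0.72 ± 0.17, adjusted p = 0.0143).

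Effector genes of neuronal activity went mostly the other way, with 9 of 19 lower and 2 higher in fl/fl and 7 lower and 1 higher in CKO (median -0.98 in each). In CKO, 1 of the 19 had fewer than 10 reads in at least 1 sham library. The synaptic pentraxin Nptx1 fell in fl/fl (-3.49 ± 0.39, adjusted p = 0.000735). It had 155 ± 73.1 CPM (SD, n = 3) in Sham-Fabp4fl/fl and 14.2 ± 1.77 CPM in ICH-Fabp4fl/fl. In CKO it had 90.1 ± 20.6 CPM in sham and 77.9 ± 38.5 CPM after ICH. Nrn1, a neurite growth factor, fell in fl/fl as well (-3.58 ± 0.94, adjusted p = 0.0187), and the neuropeptide Cort had 0.976 ± 0.13 CPM in sham and 0.0208 ± 0.036 CPM after ICH in that genotype. In CKO the prohormone convertase Pcsk1 (-1.92 ± 0.49, adjusted p = 0.0295), the neurofilament Nefm (-1.72 ± 0.31, adjusted p = 0.0126) and Rgs4 (-1.61 ± 0.37, adjusted p = 0.0226) were lower. Baz1a, a chromatin remodeling subunit not particular to neurons, was higher in both (2.15 ± 0.32 and 2.15 ± 0.50).

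Of 18 listed AP-1 target genes, 16 of the 16 tested in fl/fl and 17 of the 17 tested in CKO were higher. However, 6 and 7 of these had fewer than 10 reads in at least 1 sham library and so owed their place in the test to the ICH libraries, which leaves 10 in each genotype. The protease inhibitor Timp1, among the 6 in fl/fl, had 0.572 ± 0.307 CPM (SD, n = 3) in Sham-Fabp4fl/fl and 161 ± 72.4 CPM in ICH-Fabp4fl/fl. Hmox1, which breaks down heme, had 8.45 ± 2.21 and 1961 ± 1751 CPM in these groups (adjusted p = 0.000558). The metalloproteinase Mmp12, among the 7 in CKO, had 0.228 ± 0.0469 CPM in Sham-Fabp4CKO and 1138 ± 1105 CPM in ICH-Fabp4CKO, so its mice differed as widely as its mean. These genes are made by macrophages and other cells, and their increase is no measure of AP-1 activity.

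Axon injury and regeneration genes, the company in which Atf3 is known in injured neurons, had 10 of 20 higher and 3 lower in fl/fl and 10 higher and 1 lower in CKO (medians 0.54 and 0.55). In each genotype, 2 of the 20 had fewer than 10 reads in at least 1 sham library and so were tested through their ICH libraries. Sprr1a, which marks regenerating neurons, was among these in fl/fl. It had 0.118 ± 0.13 CPM (SD, n = 3) in Sham-Fabp4fl/fl and 9 ± 4.16 CPM in ICH-Fabp4fl/fl. Lgals1 rose (5.14 ± 0.44) as did the tubulin Tubb6 (4.56 ± 0.44), which macrophages and glia also make. The neuropeptides Nts (-2.41 ± 0.41, adjusted p = 0.00373) and Vip (-1.96 ± 0.40, adjusted p = 0.00778) and the growth cone gene Gap43 (-0.50 ± 0.17, adjusted p = 0.045) fell in fl/fl. In the genotype comparisons and the interaction, 0 genes of any of these lists passed.

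**Figure D5:**
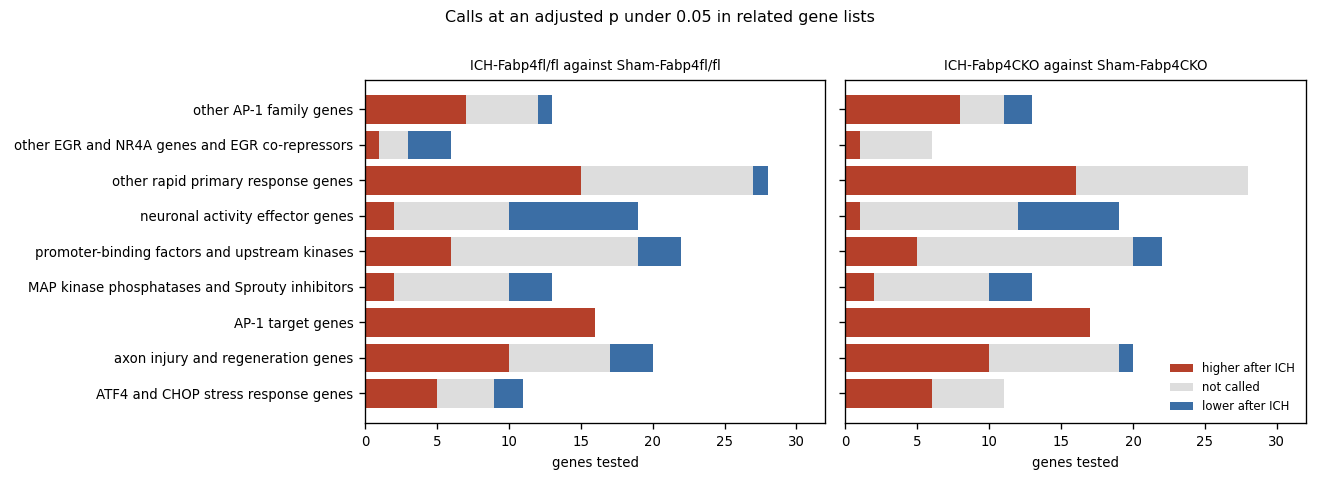
Bars count the genes tested in each list, red for higher after ICH, grey for not called and blue for lower at an adjusted p under 0.05, in fl/fl (left) and CKO (right). Red fills the bar of AP-1 targets in both (16 of 16 and 17 of 17), and blue is longest for neuronal activity effectors (9 of 19 and 7 of 19).

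Genes with profiles closest to the members were found by the root mean square difference of centered log2 CPM over the 12 libraries, among 15089 genes. Atf3 lay closest to Evi2b (0.26), Csf2rb and Slc15a3 (0.28 each), of which Csf2rb is a cytokine receptor of myeloid cells, against a root mean square of 2.79 for Atf3 about its own mean. Fos lay closest to the antiproliferative primary response gene Btg2 (0.50), the MAP kinase phosphatase Dusp5 (0.52) and Tlr12 (0.54), against 0.91 for Fos about its own mean. Arc lay closest to Mycn (0.43), the postsynaptic gene Nrgn (0.44) and Dagla (0.46), Nr4a1 to the somatostatin receptor Sstr2 (0.44), Cntn5 (0.45) and Dusp14 (0.46), and Npas4 to Fam221b, Gdf10 (0.66 each) and Egr4 (0.67), against 0.86, 1.10 and 1.28 for Arc, Nr4a1 and Npas4 about their own means. Among the members themselves, Egr1 and Fosb lay 0.30 apart, Nr4a1 and Egr1 0.37, Fos and Junb 0.64, and Atf3 and Fosl1 0.73. All these distances include the difference between sham and ICH mice.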

How the data were processed

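RNA-seq was performed on hematoma-adjacent brain tissue of 12 mice, and the authors deposited 1 table of expected counts (estimated read counts) per gene without normalization, for 21956 genes with Ensembl identifiers. The submitters' processing notes name Bowtie2 2.2.8, HISAT2, StringTie 1.3.1 and DESeq2. The counting step and genome build were not given in the sources used here. Estimated counts can share reads between overlapping or similar genes, and they were rounded to whole numbers.

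Tests used edgeR 4.0.16 in R 4.3.3 (TMM, filterByExpr with a minimum count of 10 and minimum total of 15, quasi-likelihood F-test, Benjamini-Hochberg adjusted p under 0.05) on the libraries of both groups of a comparison, and over the whole set of 12 for the interaction. P-values were adjusted over all genes tested. CPM is TMM-normalized over 12 libraries, and log2 CPM uses a prior count of 2. Lengths and overlaps are from GENCODE M21 and promoters from RefSeq. The fits were also run on simulated counts in which few genes changed, unlike the comparisons of ICH against sham. That run checked the code and does not bear on the calls given here.

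The members and lists were chosen with earlier results of these data known. All members were named, with up to 3 called genes per direction of each related list, except for genes that are not reported here, and for Fos, Arc, Nr4a1, Npas4 and Atf3 the 3 genes of closest profile. Levels near those of a few reads were not given as fitted folds in the text, except for Fosl1 in CKO. Alternatives were relative log expression factors, total counts, DESeq2 1.42.0, no filter, a minimum of 10 counts per gene in each library, a replicate block, a single fit of all 12 libraries, and each library left out.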

Additional observations from a re-analysis of the deposited data

How the results depend on the processing

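In ICH-Fabp4fl/fl against Sham-Fabp4fl/fl, 7 members passed, and 6 to 8 did with single libraries left out. In ICH-Fabp4CKO against Sham-Fabp4CKO, 2 members passed, and 1 to 7 did with single libraries left out, while the share of all genes called moved from 35.6% to between 4.21% and 67.4%. There, DESeq2 and the fit of all 12 libraries each called 5, the replicate block called 4 (Egr1 and Nr4a1 added, while the block left the counts of the other comparisons as they were), and the minimum of 10 counts in every library called 1 of the 8 members it left to test. In ICH-Fabp4CKO against ICH-Fabp4fl/fl, DESeq2 called 1 member, Egr2, and 0 were called with any library left out. In Sham-Fabp4CKO against Sham-Fabp4fl/fl, 0 to 2 passed with single libraries left out, and in the interaction 0 to 0.

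Some signs reversed. Between the ICH groups, Npas4 was -0.15 under the replicate block, and with single libraries left out it ranged from -0.98 to 1.16 and Arc from -0.07 to 0.85. In the interaction, values with single libraries left out ranged from -0.30 to 0.58 for Fos, -0.35 to 0.89 for Fosb, -0.41 to 0.50 for Egr1, -1.03 to 0.09 for Nr4a1 and -2.06 to 0.09 for Npas4. The cause was not tested. Whether replicate numbers pair the mice was not settled. In no comparison was the correlation of same-numbered deviations above 0.1 for all 3 pairs, and not every mouse correlated best with its own number. Between ICH-Fabp4fl/fl and Sham-Fabp4fl/fl, however, all 3 were positive (0.196, 0.0231 and 0.127).

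With 3 mice a group, the SE of a member's log2 fold change between the ICH groups reached 0.98, for Npas4, and Fosl1 in sham, at 0 to 3 reads, lay at the limit that depth allows. Each library was a single mouse, so p-values measure the spread between mice of these groups only.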

Other observations

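Regulators upstream of the members were counted against all genes tested, of which 26.2% were higher and 19.3% lower in fl/fl, and 24.5% higher and 11.1% lower in CKO. Among promoter-binding factors and upstream kinases, 6 of 22 genes were higher and 3 lower in ICH-Fabp4fl/fl, and 5 were higher and 2 lower in ICH-Fabp4CKO, each against its sham (medians -0.45 and -0.03). Elk3, an SRF cofactor that is also made by vessels and macrophages, rose by 2.37 ± 0.25 (log2, SE, adjusted p = 0.000625) in fl/fl and 2.75 ± 0.38 (adjusted p = 0.00726) in CKO. The kinase gene Rps6ka1 rose by 1.51 ± 0.18 and 1.91 ± 0.29, and the CREB coactivator gene Crtc2 by 0.74 ± 0.18 and 0.84 ± 0.16. Mef2d (-0.74 ± 0.24) and Crebbp (-0.44 ± 0.12), which encode a neuronal activity-regulated factor and a CREB coactivator, fell in fl/fl. In CKO the calcium-dependent kinase gene Camk4 (-1.54 ± 0.36, adjusted p = 0.0235) and Rps6ka5 (-0.71 ± 0.21) were lower. Negative regulators of the same cascade were counted too. Of 13 MAP kinase phosphatase and Sprouty genes, 2 were higher and 3 lower in each genotype (medians -0.13 and -0.03), with Spry1 higher in both (1.23 ± 0.27 and 0.66 ± 0.17) and Dusp14 lower in both (-2.03 ± 0.40 and -1.53 ± 0.36). In each genotype, 1 of the 13 had fewer than 10 reads in at least 1 sham library.

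ATF4 and CHOP stress response genes, the pathway through which Atf3 is induced by a stressed endoplasmic reticulum, had 5 of 11 higher and 2 lower in fl/fl and 6 higher and 0 lower in CKO (medians 0.48 and 0.60). In fl/fl, 1 of the 11, Trib3, had fewer than 10 reads in at least 1 sham library. Trib3 was thus tested there through its ICH libraries. It had 0.863 ± 0.736 CPM in Sham-Fabp4fl/fl and 4.58 ± 1.91 CPM in ICH-Fabp4fl/fl (SD, n = 3). In CKO it rose by 1.64 ± 0.40 (log2, SE, adjusted p = 0.0273). Atf5 rose by 1.55 ± 0.22 in fl/fl and 1.16 ± 0.18 in CKO. Cebpb, also a factor of inflamed myeloid cells, rose by 3.21 ± 0.54 and 2.97 ± 0.42. Asns, which encodes asparagine synthetase, and Chac1, both targets of ATF4, fell in fl/fl (-1.25 ± 0.26 and -0.84 ± 0.28), opposite in sign to Atf3. None of these 3 lists had a gene that passed between the genotypes or in the interaction. Of the other cell type markers, 7 of 7 endothelial markers were higher after ICH in fl/fl and 2 of 7 in CKO, and 7 of 7 microglia markers were higher in both. All 7 endothelial markers had log2 fold changes above 0 in CKO, and 0 passed between the ICH groups or in the interaction.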
